A study of Mus musculus with 10 samples.

Results

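The genes described here are 10 genes of the NRF2 antioxidant response in mouse embryonic fibroblasts, cells grown out from mouse embryos. They were taken as a named list: Nfe2l2, which encodes the transcription factor NRF2, its inhibitor Keap1, and the target genes Nqo1, Hmox1, Gclc, Gclm, Slc7a11, Srxn1, Txnrd1 and Gsr. The list was chosen with earlier results of these data known, so its contrasts with all probe sets and with other lists are descriptions. All probe sets annotated to 1 of these symbols alone were used, 21 of the 45037 non-control probe sets, and the 10 genes are among 18193 with such a probe set. A total of 19 of the 21 probe sets, with at least 1 for each gene, reached the level required for testing, a mean of 4 on the log2 scale in at least 1 group. The other 2, Nfe2l2 1457117_at and Srxn1 1419942_at, were measured but not tested. Both Slc7a11 sets reached that level in CDKO cells at 5 µM OHT and in no other group, so they could be tested only where they are high, and the counts over tested probe sets given here are descriptions that support nothing further. Probe sets with the endings _a_at, _s_at and _x_at can match several transcripts.

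Total RNA from 10 samples was hybridised to 1 Affymetrix array each. The 6 arrays labelled CDKO came from cells with a conditional Dicer knockout, untreated or given 1 µM or 5 µM 4-hydroxytamoxifen (OHT) for 4 days, and the 4 arrays labelled WT came from wild-type cells, given 5 µM OHT or untreated, with 2 arrays in each of these 5 groups. OHT, a ligand of the estrogen receptor, is widely used to activate Cre recombinase joined to that receptor's binding domain, and Dicer is the enzyme that cuts microRNA precursors. All groups were kept in the same medium with 10% serum. The labels do not say what drives the Cre, whether the WT cells carry it, whether either kind of cell is 1 isolate, or whether replicate arrays stand for separate cultures. P-values therefore measure the spread between these arrays, which may be technical. The question stated for the series is how OHT-treated CDKO cells differ from the 3 control groups, and the dose and genotype groups also allow the comparisons given here.

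NRF2 is held in the cytoplasm by KEAP1, which hands it to a ubiquitin ligase for degradation. Oxidants and electrophiles modify cysteines of KEAP1, and NRF2 then accumulates, pairs with a small MAF protein and binds antioxidant response elements near its target genes. NRF2 is thus controlled mainly at the level of protein, and its target genes are the usual transcript readout of the pathway. The targets fall into roles: SLC7A11 imports cystine, the glutamate-cysteine ligase subunits GCLC and GCLM make the precursor of glutathione from cysteine, GSR, TXNRD1 and SRXN1 return oxidised glutathione, thioredoxin and peroxiredoxins to use, NQO1 reduces quinones, and HMOX1 breaks down haem.

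Promoter windows, from 250 bases before to 50 bases after an annotated start, were on hand from RefSeq (mouse build GRCm38.p6) for 7 of the 10 genes, in 9 windows. Both strands were searched for the antioxidant response element core TGACNNNGC, the AP-1-like element TGANTCA and the C/EBP-ATF response element TGATGNAA, where N is any base. The core and the AP-1-like element can overlap in sequence, and no matches in these windows overlapped. The core was found in 12.4% of the 32851 windows of all genes, the AP-1-like element in 7.81% and the C/EBP-ATF element in 3.97%. The windows of Slc7a11, Srxn1, Gclm and 1 of 3 starts of Txnrd1 are shown because they carry the matches among the target genes, as 5′ to 3′ sequence of the gene's strand with the matches in capitals.
Slc7a11 (chr3:50443564-50443863, minus strand): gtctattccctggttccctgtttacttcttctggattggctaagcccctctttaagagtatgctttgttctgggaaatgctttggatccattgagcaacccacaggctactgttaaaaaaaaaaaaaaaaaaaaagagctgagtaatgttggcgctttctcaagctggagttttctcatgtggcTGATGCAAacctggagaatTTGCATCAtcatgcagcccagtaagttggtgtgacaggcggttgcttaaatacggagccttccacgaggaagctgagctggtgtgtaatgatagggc
Srxn1 (chr2:152105274-152105573, plus strand): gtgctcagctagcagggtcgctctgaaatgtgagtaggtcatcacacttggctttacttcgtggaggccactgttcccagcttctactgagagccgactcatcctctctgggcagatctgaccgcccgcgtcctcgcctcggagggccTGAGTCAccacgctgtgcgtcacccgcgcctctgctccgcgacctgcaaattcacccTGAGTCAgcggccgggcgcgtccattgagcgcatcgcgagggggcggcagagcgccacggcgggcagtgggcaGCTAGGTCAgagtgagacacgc
Gclm (chr3:122245307-122245606, plus strand): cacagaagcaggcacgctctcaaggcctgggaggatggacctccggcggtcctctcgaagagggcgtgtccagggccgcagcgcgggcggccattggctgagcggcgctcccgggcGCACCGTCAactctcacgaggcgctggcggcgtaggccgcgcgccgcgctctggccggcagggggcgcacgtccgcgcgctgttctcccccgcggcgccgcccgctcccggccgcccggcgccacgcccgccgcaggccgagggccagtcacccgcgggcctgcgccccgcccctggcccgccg
Txnrd1 (chr10:82858956-82859255, plus strand): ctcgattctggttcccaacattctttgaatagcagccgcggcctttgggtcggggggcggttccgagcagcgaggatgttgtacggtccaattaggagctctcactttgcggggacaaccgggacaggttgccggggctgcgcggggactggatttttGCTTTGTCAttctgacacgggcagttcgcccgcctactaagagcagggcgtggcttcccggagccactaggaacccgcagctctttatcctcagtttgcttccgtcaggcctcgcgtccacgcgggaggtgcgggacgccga
In the Slc7a11 window the capitals mark 2 C/EBP-ATF elements, at -66 to -59 on the gene's strand and at -47 to -40 on the other strand. In the Srxn1 window they mark 2 AP-1-like elements, at -102 to -96 and -45 to -39, and a core on the other strand at 29 to 37. The Gclm core lies at -134 to -126 and the Txnrd1 core at -92 to -84, both on the other strand. The Nfe2l2 window held a core at -240 to -232 on the gene's strand. The windows of Keap1 and Nqo1 and the other 2 Txnrd1 windows held none of these letters, which says nothing of elements outside them. The matches describe sequence and were not tested for binding.

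**Figure D1:**
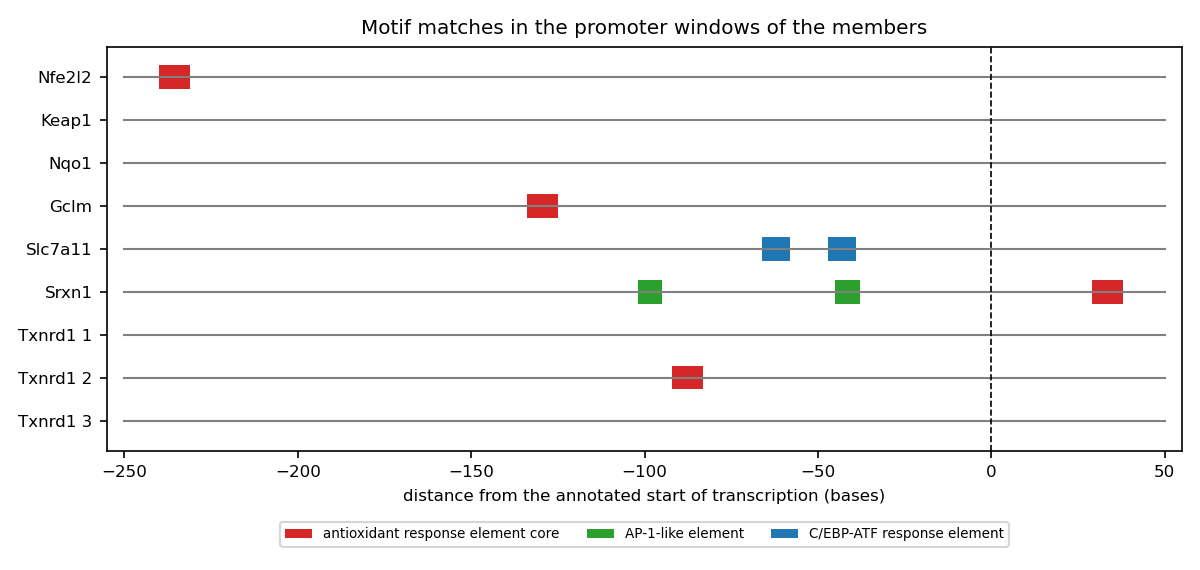
Motif matches in the 9 RefSeq promoter windows of 7 genes, drawn by distance in bases from the annotated start (dashed line). Red blocks are antioxidant response element cores (in Nfe2l2, Gclm, Srxn1 and 1 Txnrd1 window), green blocks AP-1-like elements (Srxn1) and blue blocks C/EBP-ATF elements (Slc7a11).

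The deposited values are GCRMA log2 expression values, and each array had 41.8% to 43.2% of probe sets at 4 or more. The 18S ribosomal RNA control stood at 11.6 and 11.2 in untreated WT cells and 10.2 in 1 µM CDKO replicate 2, against 5.21 to 8.44 on the other 7 arrays, and the same 3 arrays had a 3′ excess of 0.67 to 1.58 in the Gapdh control, against -0.31 to 0.07. Hybridisation spike-in controls were lower on untreated CDKO replicate 2, both 1 µM CDKO arrays and 5 µM CDKO replicate 2. The median SD between replicates over tested probe sets was 0.31 in untreated, 0.34 in 1 µM and 0.29 in 5 µM CDKO cells, against 0.07 in 5 µM WT and 0.10 in untreated WT cells, so the pooled spread of the tests is too small among CDKO groups and too large among WT groups. Dicer1 probe set 1427941_at read 7.09 and 5.99 in untreated, 5.40 and 8.30 in 1 µM and 5.83 and 5.78 in 5 µM CDKO cells, and 7.64 and 7.19 in 5 µM WT against 8.97 and 9.10 in untreated WT cells. It was higher in 1 µM CDKO replicate 2 than in either untreated CDKO array. The second set, 1460571_at, read 6.33 and 5.93, 6.10 and 6.55, and 5.90 and 5.49 in these CDKO groups, and 5.90 and 5.94 in 5 µM WT against 7.31 and 7.16 in untreated WT cells, so it did not set 5 µM CDKO clearly apart from 5 µM WT cells as 1427941_at did. Of 11 fibroblast markers, 10 or 11 were at 4 or more on every array. Summed fibroblast markers were 118.45 in 5 µM CDKO replicate 1 and 129.55 to 136.35 on the other arrays, with Lum near or below 4 on all arrays but 1. Markers of other cell types set the untreated WT arrays apart. Of 6 skeletal muscle markers 5 were at 4 or more there and 1 on each of the other 8 arrays, with Myog at background on all. Of 5 epithelial markers 4 were, against 2 or 3, with Epcam near or below 4 on all. Krt8, an epithelial keratin, read 8.59 and 9.04 in untreated WT cells and 2.92 to 3.15 elsewhere. Krt19 did not set these arrays apart, at 7.20 and 7.07 there and 7.32 and 7.63 in 5 µM WT cells, and Krt18 was above 4 on all arrays.

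Under 5 µM OHT, CDKO cells had more transcript of the cystine importer Slc7a11 and the quinone reductase Nqo1 than untreated CDKO cells. The glutathione synthesis genes Gclc and Gclm and the peroxiredoxin repair gene Srxn1 were also higher on both arrays than on both untreated arrays, but did not pass the test over all probe sets. Nfe2l2 and Keap1 themselves overlapped between the groups. In this comparison 3 of the 19 tested probe sets were higher at an adjusted p under 0.05 (limma, moderated test on 5 group means, Benjamini-Hochberg over 20681 probe sets), and 0 were lower, where 24 of all 20681 (0.116%) were higher. For 16 of the 19 the groups did not overlap and the 5 µM arrays were the higher, as for 15.7% of all probe sets. The median difference of the 19 was 1.83, against -0.001 over all probe sets, and 12 of 19 had an unadjusted p under 0.05, against 8.89% of all.

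The regulators come first. The abundant Nfe2l2 probe set 1416543_at read 11.76 and 12.42 in untreated, 12.36 and 11.23 in 1 µM and 12.03 and 12.40 in 5 µM CDKO cells. WT cells had 11.67 and 11.66 at 5 µM and 11.24 and 11.37 untreated. The CDKO groups overlapped, with a difference of 0.12 ± 0.40 between 5 µM and untreated cells (SE, n = 2 each, adjusted p = 0.988 in limma), and the 3 arrays with a raised 18S control were the lowest. The other Nfe2l2 probe set, 1457117_at, lay between 2.58 and 2.81 on all arrays, at the background of the method.

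Keap1 was read by a pair of probe sets, which separated the 3 arrays with a raised 18S control from the others in opposite directions. Probe set 1450746_at had 8.43 and 7.95 in untreated, 7.69 and 8.71 in 1 µM and 7.76 and 8.16 in 5 µM CDKO cells, and 8.04 and 7.96 in 5 µM WT against 8.54 and 8.58 in untreated WT cells. Probe set 1450747_at had 5.64 and 6.67, 6.82 and 3.66, and 6.02 and 7.62 in the same CDKO groups, and 6.34 and 6.54 in 5 µM WT against 4.57 and 4.58 in untreated WT cells. On those 3 arrays 1450746_at was higher than on all other arrays and 1450747_at lower than on all others, while within 5 µM CDKO cells both were higher on replicate 2. Their differences between 5 µM and untreated CDKO cells were -0.23 ± 0.35 and 0.66 ± 0.98, and neither passed (SE, n = 2 each, adjusted p = 0.963 and 0.959 in limma).

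**Figure D2:**
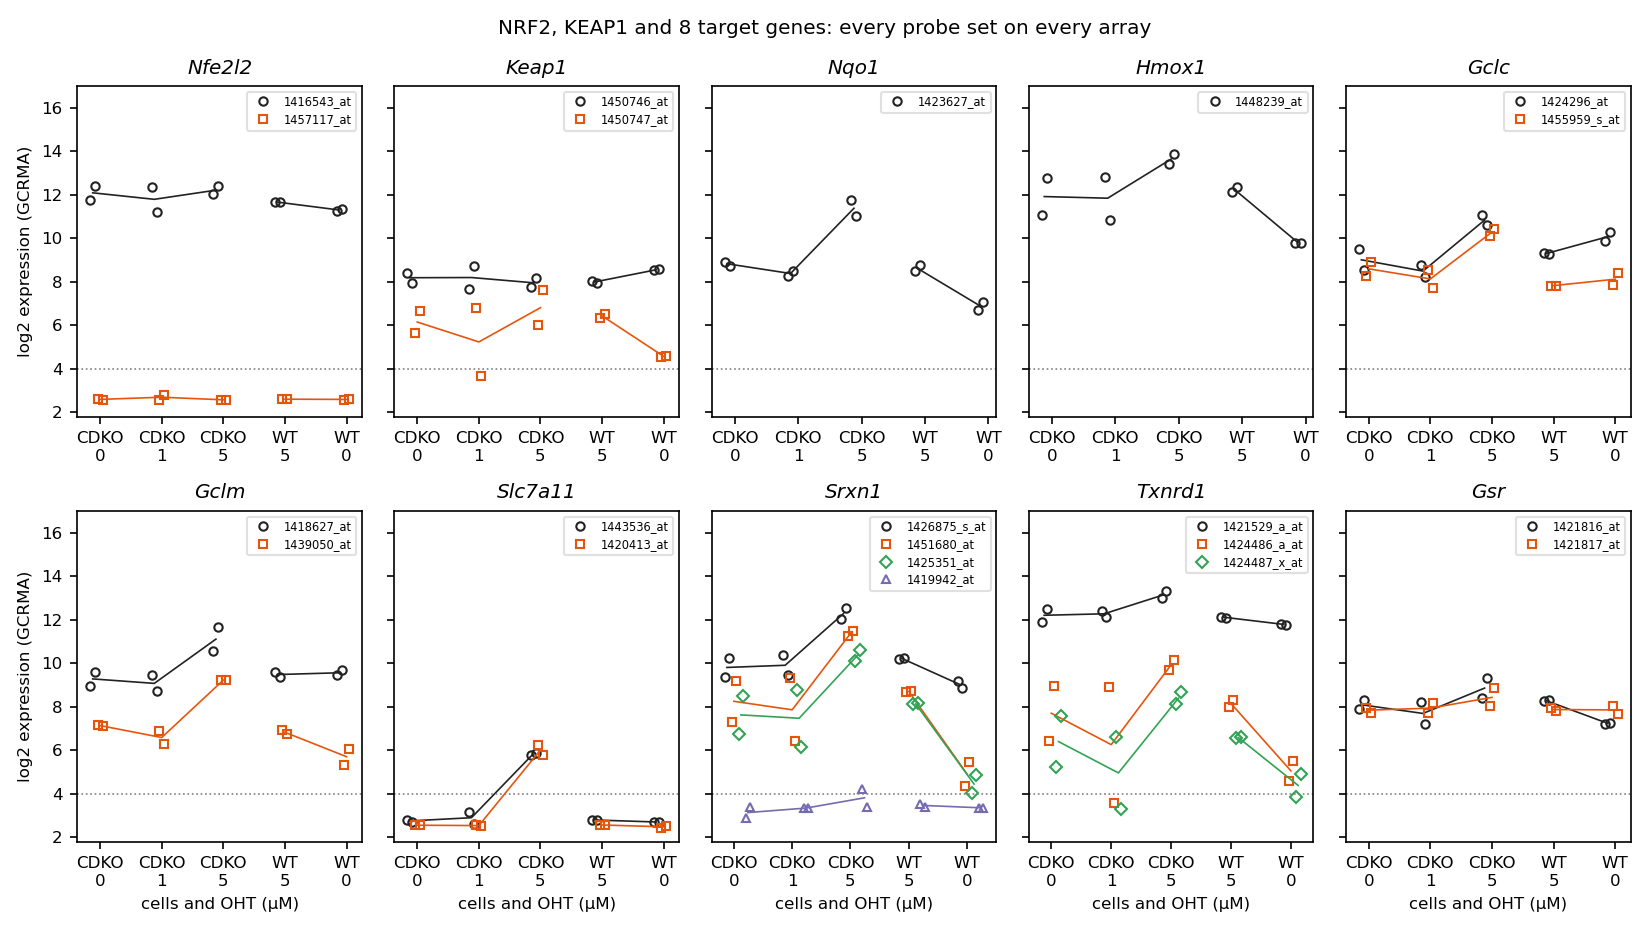
GCRMA log2 expression of all 21 probe sets of the 10 genes on all 10 arrays, by cells and OHT dose in µM. Points are arrays (2 per group), symbols and colours probe sets, lines join group means within CDKO and within WT cells, and the dotted line is the level of 4 required of a group mean for testing. Both Slc7a11 probe sets lie between 5.77 and 6.25 on the 5 µM CDKO arrays and between 2.43 and 3.18 on the other 8 arrays.

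Slc7a11, the cystine importer, was at the background of the method everywhere except in 5 µM CDKO cells. Probe set 1443536_at read 2.78 and 2.73 in untreated, 3.18 and 2.62 in 1 µM and 5.78 and 5.87 in 5 µM CDKO cells. In WT cells it read 2.80 and 2.79 at 5 µM and 2.72 and 2.69 untreated. Probe set 1420413_at, a separate set of probes, read 6.25 and 5.77 in 5 µM CDKO cells and 2.43 to 2.57 on the other 8 arrays. Both rose at 5 µM against untreated CDKO cells, by 3.07 ± 0.23 and 3.46 ± 0.21 (SE, n = 2 each, adjusted p = 0.0114 and 0.00479 in limma). The 8 other arrays are at background, so these differences are no ratio of transcripts, and the small spread behind their SE comes from those arrays. Probe set 1420413_at did not pass without untreated CDKO replicate 1 (adjusted p = 0.0906) and passed without each of the other 9 arrays. Probe set 1443536_at did not pass without untreated CDKO replicate 1, 5 µM CDKO replicate 1 or any of the 4 WT arrays (0.0533 to 0.0906). With no filter on level both passed (0.00874 and 0.00347), and in a fit of the 4 arrays of these groups alone neither did (0.872 for both).

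Gclc, the catalytic subunit of glutamate-cysteine ligase, read 9.49 and 8.53 in untreated, 8.76 and 8.23 in 1 µM and 11.06 and 10.61 in 5 µM CDKO cells with probe set 1424296_at. The second set, 1455959_s_at, read 8.26 and 8.94, 8.55 and 7.73, and 10.13 and 10.45 in the same groups. In WT cells 1424296_at read 9.32 and 9.28 at 5 µM and 9.88 and 10.27 untreated. All 4 readings at 5 µM in CDKO cells were above all readings of the same probe set on the other 8 arrays. The differences between 5 µM and untreated CDKO cells were 1.82 ± 0.37 and 1.69 ± 0.36 (SE, n = 2 each), and neither passed (adjusted p = 0.145 and 0.166 in limma).

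Gclm, the modifier subunit, gave a like order. Probe set 1439050_at read 7.17 and 7.09 in untreated, 6.89 and 6.29 in 1 µM and 9.22 on both arrays in 5 µM CDKO cells, and 6.92 and 6.74 in 5 µM WT against 5.33 and 6.07 in untreated WT cells. Probe set 1418627_at read 8.95 and 9.60, 9.44 and 8.70, and 10.56 and 11.65 in the CDKO groups, and 9.58 and 9.38 in 5 µM WT against 9.45 and 9.67 in untreated WT cells. The 5 µM CDKO arrays were the highest of all with both. The differences from untreated CDKO cells were 2.09 ± 0.31 and 1.83 ± 0.42 (SE, n = 2 each), and neither passed (adjusted p = 0.0694 and 0.202 in limma).

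Srxn1, sulfiredoxin, which reduces over-oxidised peroxiredoxins, was represented by probe set 1426875_s_at. It read 9.36 and 10.25 in untreated, 10.37 and 9.44 in 1 µM and 12.04 and 12.52 in 5 µM CDKO cells, and 10.20 and 10.24 in 5 µM WT against 9.18 and 8.85 in untreated WT cells. The 5 µM CDKO arrays were again the highest, by 2.48 ± 0.41 over untreated CDKO cells (SE, n = 2 each, adjusted p = 0.0971 in limma). Sets 1451680_at and 1425351_at gave 3.11 ± 0.96 and 2.73 ± 0.87 and did not pass (adjusted p = 0.349 and 0.37 in limma). Their untreated CDKO arrays were themselves 7.31 and 9.19, and 6.77 and 8.48. The untested set 1419942_at lay between 2.91 and 4.22.

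Txnrd1, thioredoxin reductase, was represented by 1421529_a_at, which read 11.90 and 12.51 in untreated, 12.40 and 12.14 in 1 µM and 12.98 and 13.31 in 5 µM CDKO cells, and 12.13 and 12.10 in 5 µM WT against 11.82 and 11.75 in untreated WT cells. The 5 µM CDKO arrays were above all others, by 0.94 ± 0.26 over untreated CDKO cells (SE, n = 2 each, adjusted p = 0.276 in limma). Its other sets spread far more between replicates: 1424486_a_at read 6.43 and 8.97 in untreated, 8.93 and 3.59 in 1 µM and 9.71 and 10.14 in 5 µM CDKO cells. Gsr, glutathione reductase, read 7.89 and 8.29, 8.20 and 7.19, and 8.39 and 9.32 in these groups with 1421816_at, and 7.95 and 7.73, 7.70 and 8.17, and 8.01 and 8.85 with 1421817_at. The 5 µM CDKO arrays lay above the untreated CDKO arrays with both, by 0.77 ± 0.41 and 0.59 ± 0.33, and neither passed (SE, n = 2 each, adjusted p = 0.696 and 0.716 in limma).

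Nqo1, the quinone reductase, had 1 probe set, 1423627_at. It read 8.93 and 8.74 in untreated, 8.27 and 8.50 in 1 µM and 11.76 and 11.01 in 5 µM CDKO cells. In WT cells it read 8.48 and 8.76 at 5 µM and 6.69 and 7.07 untreated. The 5 µM CDKO arrays were the highest, the untreated WT arrays the lowest, and the other 3 groups lay between 8.27 and 8.93. Nqo1 rose by 2.55 ± 0.30 in 5 µM against untreated CDKO cells, 5.86-fold (SE, n = 2 each, adjusted p = 0.0378 in limma). It passed without 5 µM CDKO replicate 2 (adjusted p = 0.0209) and did not pass without any of the other 9 arrays (0.0589 to 0.179), although the difference stayed between 2.17 and 2.93. Nor did it pass with no filter on level (0.0752), with array medians centred (0.0529), with arrays weighted by quality (0.396), with the replicate number as a block (0.0969) or in a fit of the compared groups alone (0.872).

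Hmox1, haem oxygenase, was read by 1448239_at at 11.06 and 12.79 in untreated, 12.84 and 10.86 in 1 µM and 13.41 and 13.88 in 5 µM CDKO cells, and at 12.14 and 12.34 in 5 µM WT against 9.80 and 9.81 in untreated WT cells. The 5 µM CDKO arrays were the highest, but the untreated CDKO replicates differed by more than the difference of 1.72 ± 0.72 between the groups' means (SE, n = 2 each, adjusted p = 0.544 in limma).

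The difference between 5 µM and untreated CDKO cells was measured within each class of spike-in level as well, with 1 array against 1. The differences in the higher and the lower class were 2.83 and 2.27 for Nqo1, 2.998 and 3.147 for Slc7a11 1443536_at, 2.68 and 2.27 for Srxn1 1426875_s_at, and 2.05 and 2.13 for Gclm 1439050_at. For Hmox1 they were 2.35 and 1.09. None of these arrays had a raised 18S control. The 5 µM replicate 1 stood apart in cell type markers: its summed level over 15 macrophage and leukocyte markers, 12 of them at 4 or more, was 113.08, against 90.63 in 5 µM replicate 2 and 104.58 and 90.95 in untreated CDKO cells. Its Cd68, a macrophage lysosomal protein, was 9.15, against 7.05, and 6.75 and 6.59. Not all of the 15 markers went this way. C1qa was 8.23 and C1qb 9.86, below the 8.34 and 10.41 of untreated CDKO replicate 1, and Fcgr1, Itgam and Cd74 were at background. The 5 endothelial markers summed to 14.21 and 14.48 at 5 µM and 16.14 and 14.76 untreated, with Pecam1 and Cdh5 at background. Without 5 µM replicate 1 the Nqo1 difference was 2.17 (adjusted p = 0.122 in limma) and that of Slc7a11 1420413_at 3.22 (0.0274). Without the 3 arrays with a raised 18S control, which belong to neither group but enter the pooled spread, 0 of 19 passed: the differences were the same and the adjusted p was 0.192 for Nqo1 and 0.128 for both Slc7a11 sets. In such bulk samples fewer cells of a type and less RNA per cell cannot be told apart.

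At 1 µM no member passed the test in CDKO cells. A total of 0 of 19 probe sets passed in limma, where 0% of all probe sets were higher, 0 of 19 had an unadjusted p under 0.05, where 710 of 20681 (3.43%) did, and the median difference from untreated cells was -0.30, against -0.04 over all probe sets. Nqo1 differed by -0.45 ± 0.30 and Slc7a11 1443536_at by 0.15 ± 0.23 (SE, n = 2 each, adjusted p = 0.887 and 0.936 in limma). The 1 µM replicates disagreed, and replicate 2 had the raised 18S control. The median absolute difference between them was 0.94 over the 19 probe sets and 0.49 over all. Txnrd1 1424486_a_at differed by 5.34 between them.

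Between the doses, 5 µM CDKO cells were higher than 1 µM CDKO cells for 4 of 19 probe sets, where 0.16% of all probe sets were higher. These were Nqo1 by 2.998 ± 0.297, Gclm 1439050_at by 2.64 ± 0.31, and Slc7a11 by 2.92 ± 0.23 and 3.47 ± 0.21 (SE, n = 2 each, adjusted p = 0.022, 0.0412, 0.0122 and 0.00414 in limma). Both 5 µM arrays lay above both 1 µM arrays for 15 of 19, where 20.1% of all did. The count depended on the discordant 1 µM replicates, as did that over all probe sets, of which 0.169% passed in either direction. It was 2 without 1 µM replicate 2, where 0.0338% of all passed, and 14 without 1 µM replicate 1, where 9.19% of all did. It was 1 without 5 µM replicate 1 or any WT array, where 0.0387% and 0.0145% of all did. Without the 3 arrays with a raised 18S control 0 of 19 passed (adjusted p = 0.209 to 0.37 for these 4), nor did any in a fit of the compared groups alone (0.828). Slc7a11 1420413_at passed without each array in turn, but both Slc7a11 sets reached the level for testing only in 5 µM CDKO cells. Their 1 µM arrays were at background, so the Slc7a11 passes add no support beyond the readings. The Gclm set passed without 2 of the 10 arrays left out in turn, and it did not pass with no filter (0.0762), quantile normalization (0.0631), centred medians (0.0652), array weights (0.736), the replicate block (0.109) or the spike-in class as a term (0.0934). With array weights and with the block, Nqo1 (0.411 and 0.0708) and Slc7a11 1443536_at (0.064 and 0.0506) did not pass either.

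In WT cells 5 µM OHT was set against untreated cells that also had the raised 18S control, and that expressed muscle and epithelial markers. The drug cannot be told apart from either. Nqo1 and 1 of 3 tested Srxn1 sets were higher in treated WT cells, Slc7a11 was at background in both groups, and both Gclc sets had a negative difference that did not pass. Higher were 2 of 19 probe sets, where 3.51% of all were, and 0 were lower, where 5.73% of all were. Nqo1 was higher by 1.75 ± 0.30 and Srxn1 1425351_at by 3.68 ± 0.87 (SE, n = 2 each, adjusted p = 0.018 and 0.0434 in limma). Srxn1 1425351_at read 8.10 and 8.16 in 5 µM WT against 4.02 and 4.88 in untreated WT cells, while the representing set 1426875_s_at differed by 1.21 ± 0.41 and did not pass (adjusted p = 0.0977). Hmox1 had a difference of 2.44 ± 0.72 and Gclc 1424296_at of -0.78 ± 0.37 (adjusted p = 0.0721 and 0.198). The other Gclc set, 1455959_s_at, read 7.83 on both treated arrays against 7.86 and 8.39 on the untreated arrays. Gsr 1421816_at read 8.24 and 8.31 in treated against 7.22 and 7.25 in untreated WT cells, a difference of 1.04 ± 0.41 (adjusted p = 0.135). Txnrd1 1424486_a_at read 7.99 and 8.30 in treated against 4.60 and 5.51 in untreated WT cells, a difference of 3.09 ± 1.57 (0.226), while 1421529_a_at differed by 0.33 ± 0.26 (0.429). Both treated arrays lay above both untreated arrays for 14 of 19, where 39.1% of all probe sets did, and below for 3, where 43.9% did. An unadjusted p under 0.05 in limma was found for 7 of 19, where 30.6% of all had one. Of all probe sets 9.23% passed in either direction. Without any 1 of the 4 WT arrays 0 of 19 passed, where 0.309% to 1.09% of all did, without either 5 µM CDKO array 1 did (9.16% of all), and without either 1 µM CDKO array 7 did (21.8% of all). Srxn1 1425351_at did not pass with no filter (0.13) or with the replicate block (0.0696). The 6 skeletal muscle markers summed to 19.88 and 20.02 in treated and 36.41 and 36.07 in untreated WT cells, with 1 and 5 at 4 or more. The 5 epithelial markers summed to 25.30 and 25.65 in treated and 35.89 and 35.78 in untreated cells, with 2 and 4 at 4 or more. The 4 adipocyte markers on the array summed to 28.96 and 28.58 against 32.49 and 32.63, with 3 and 4 at 4 or more and Adipoq at background in treated cells. The 15 macrophage and leukocyte markers summed to 119.31 and 118.11 in treated and 116.11 and 117.45 in untreated WT cells, with 12 at 4 or more on all 4 arrays. Single markers went both ways behind these sums. Cd68 read 9.69 and 9.64 in treated against 7.41 and 7.38 in untreated cells, and Lyz2 13.23 and 13.24 against 11.38 and 11.52. Csf1r read 8.85 and 8.82 against 10.49 and 10.63, and C1qb 10.16 and 10.09 against 11.05 and 10.96. The part of these lists in the WT results was not tested.

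The 3 arrays with a raised 18S control were set against the other 7. For 11 of 19 probe sets all 3 were below all 7, where 12.3% of all probe sets were, 1 was above (Keap1 1450746_at), where 10.8% of all were, and 7 overlapped. Probe sets of 1 gene differed in this: the Txnrd1 sets 1424486_a_at and 1424487_x_at lay at 3.59 to 5.51 and 3.30 to 4.93 on the 3 arrays and at 6.43 to 10.14 and 5.24 to 8.66 on the 7, while 1421529_a_at overlapped (11.75 to 12.14 against 11.90 to 13.31). For Srxn1, 1451680_at and 1425351_at were all below and 1426875_s_at overlapped. For Keap1 the sets went opposite ways. These values belong beside every comparison with untreated WT or 1 µM CDKO cells, and the part of RNA state in them was not tested.

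**Figure D3:**
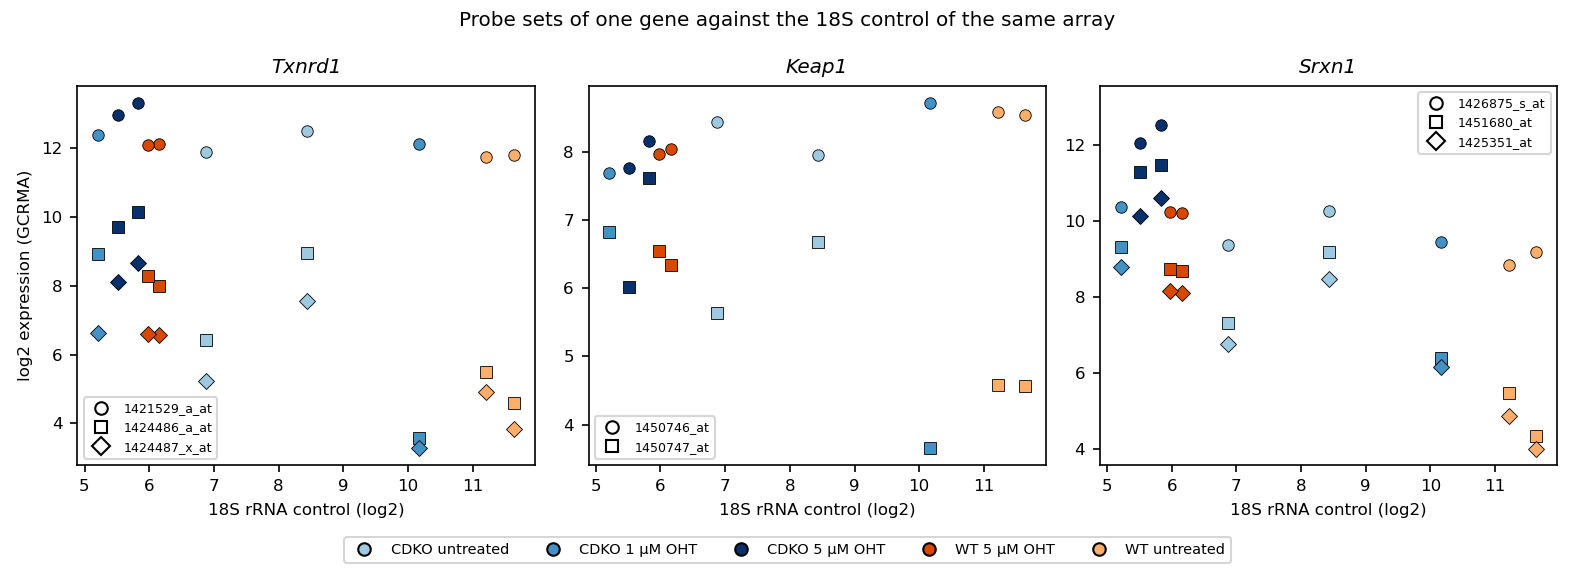
GCRMA log2 expression of Txnrd1, Keap1 and Srxn1 probe sets against the log2 level of the 18S ribosomal RNA control of the same array, with 1 symbol per probe set and 1 colour per group. At 18S levels above 10 (untreated WT cells and 1 µM CDKO replicate 2) Txnrd1 1424486_a_at lies at 3.59 to 5.51 and 1421529_a_at at 11.75 to 12.14.

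Without treatment, CDKO cells had more Nqo1 transcript than WT cells, and more Gclm with 1 of its 2 probe sets. A total of 2 of 19 probe sets were higher, where 2.3% of all were: Nqo1 by 1.96 ± 0.30 and Gclm 1439050_at by 1.43 ± 0.31 (SE, n = 2 each, adjusted p = 0.0129 and 0.0379 in limma). Both CDKO arrays lay above both WT arrays for 14 of 19, where 30.9% of all did. An unadjusted p under 0.05 in limma was found for 6 of 19, where 25% of all had one. The untreated WT arrays carry the raised 18S control here too, and the other cells' markers differ with genotype. The skeletal muscle list summed to 20.61 and 19.69 in CDKO and 36.41 and 36.07 in WT cells (1 against 5 of 6 at 4 or more), and the epithelial list to 21.34 and 25.33 in CDKO and 35.89 and 35.78 in WT cells (2 against 4 of 5). The adipocyte list summed to 25.95 and 22.25 in CDKO and 32.49 and 32.63 in WT cells (3 against 4 of 4), and the macrophage and leukocyte list to 104.58 and 90.95 in CDKO and 116.11 and 117.45 in WT cells (11 or 12 against 12 of 15). Their part in these differences was not tested. Nqo1 in untreated CDKO cells (8.93 and 8.74) lay beside 5 µM WT cells (8.48 and 8.76), whose arrays do not have the raised 18S control. Nqo1 did not pass without untreated CDKO replicate 2 or either untreated WT array (adjusted p = 0.0534 to 0.0977), and the Gclm set passed without either 1 µM CDKO array and without no other (0.058 to 0.212 without the others). With no filter, array weights, the compared groups alone, the replicate block or the spike-in class as a term the Gclm set did not pass (0.0815, 0.0891, 0.0918, 0.065 and 0.0521). The count was 5 without either 1 µM CDKO array, where 15.5% of all probe sets passed, against 6.58% with all arrays.

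At 5 µM, where no array had a raised 18S control, CDKO cells were higher than WT cells in Slc7a11 and Nqo1. Both subunits of glutamate-cysteine ligase were higher with 1 of 2 probe sets each. A total of 5 of 19 probe sets were higher, where 0.943% of all were, and both CDKO arrays lay above both WT arrays for 17 of 19, where 30.6% of all did. Nqo1 differed by 2.76 ± 0.30, which is 6.77-fold, Gclm 1439050_at by 2.40 ± 0.31, 5.27-fold, and Gclc 1455959_s_at by 2.46 ± 0.36, 5.51-fold (SE, n = 2 each, adjusted p = 0.00908, 0.0147 and 0.0247 in limma). Gclc 1455959_s_at read 10.13 and 10.45 in CDKO and 7.83 on both arrays in WT cells. The representing sets, Gclc 1424296_at and Gclm 1418627_at, differed by 1.54 ± 0.37 and 1.63 ± 0.42 and did not pass (adjusted p = 0.0965 and 0.12 in limma). The Slc7a11 sets differed by 3.03 ± 0.23 and 3.45 ± 0.21 (adjusted p = 0.00236 and 9.67e-04 in limma). They reached the level for testing only in 5 µM CDKO cells, and their WT arrays were at background. These differences are therefore no ratio of transcripts, and the Slc7a11 passes counted and given here add no support beyond the readings. Srxn1 1426875_s_at differed by 2.06 ± 0.41 and Txnrd1 1421529_a_at by 1.03 ± 0.26, and neither passed (0.0585 and 0.109). Both Slc7a11 sets passed without each array in turn, and without the 3 arrays with a raised 18S control both they and the Gclm set passed (0.0184 to 0.0337) and Nqo1 and Gclc did not (0.0536 and 0.0614). Nqo1 did not pass without either 5 µM WT array (0.122 and 0.0909), Gclm without any of the 4 arrays of these groups (0.0533 to 0.159), or Gclc without these or either untreated WT array (0.059 to 0.212). In a fit of the compared groups alone 0 of the 5 passed: the adjusted p was 0.0601 and 0.0688 for Slc7a11, 0.0888 for Nqo1, 0.0688 for Gclm and 0.0732 for Gclc. Gclc did not pass with no filter (0.0565) or the replicate block (0.0513). The summed macrophage and leukocyte markers were 113.08 and 90.63 in CDKO and 119.31 and 118.11 in WT cells. The 4 adipocyte markers on the array summed to 24.37 and 23.41 in CDKO and 28.96 and 28.58 in WT cells, with 3 at 4 or more in both and Adipoq at background. The part of these lists was not tested.

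The response to 5 µM, as a difference of differences, was larger in CDKO than in WT cells for Slc7a11, the only one of the 10 genes to pass. Both its probe sets passed, 2 of 19, where 0.285% of all probe sets were higher. Slc7a11 1443536_at changed by 3.07 in CDKO and 0.09 in WT cells, a difference of 2.98 ± 0.32, and 1420413_at by 3.46 and 0.08, a difference of 3.37 ± 0.30 (SE, adjusted p = 0.0151 and 0.00783 in limma). The Gclc set 1424296_at changed by 1.82 in CDKO and -0.78 in WT cells, a difference of 2.60 ± 0.52 that did not pass (adjusted p = 0.125). For Nqo1 the difference was 0.81 ± 0.42 and for Hmox1 -0.72 ± 1.01 (adjusted p = 0.482 and 0.802). The Slc7a11 sets reached the level for testing only in 5 µM CDKO cells. With no filter on level, over all 45037 probe sets, their adjusted p was 0.0123 and 0.00509. That fit rests on the same background arrays and is no separate support. The other arrays of both sets are at background, so the size of the difference is no ratio of transcripts. The untreated WT arrays, with the raised 18S control and the muscle and epithelial markers, enter each of these differences, and the part of those markers was not tested. The set 1420413_at did not pass without untreated WT replicate 2 or either 5 µM WT array (0.0695 to 0.0866), and 1443536_at passed without either 1 µM CDKO array and without no other (0.0503 to 0.145).

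**Figure D4:**
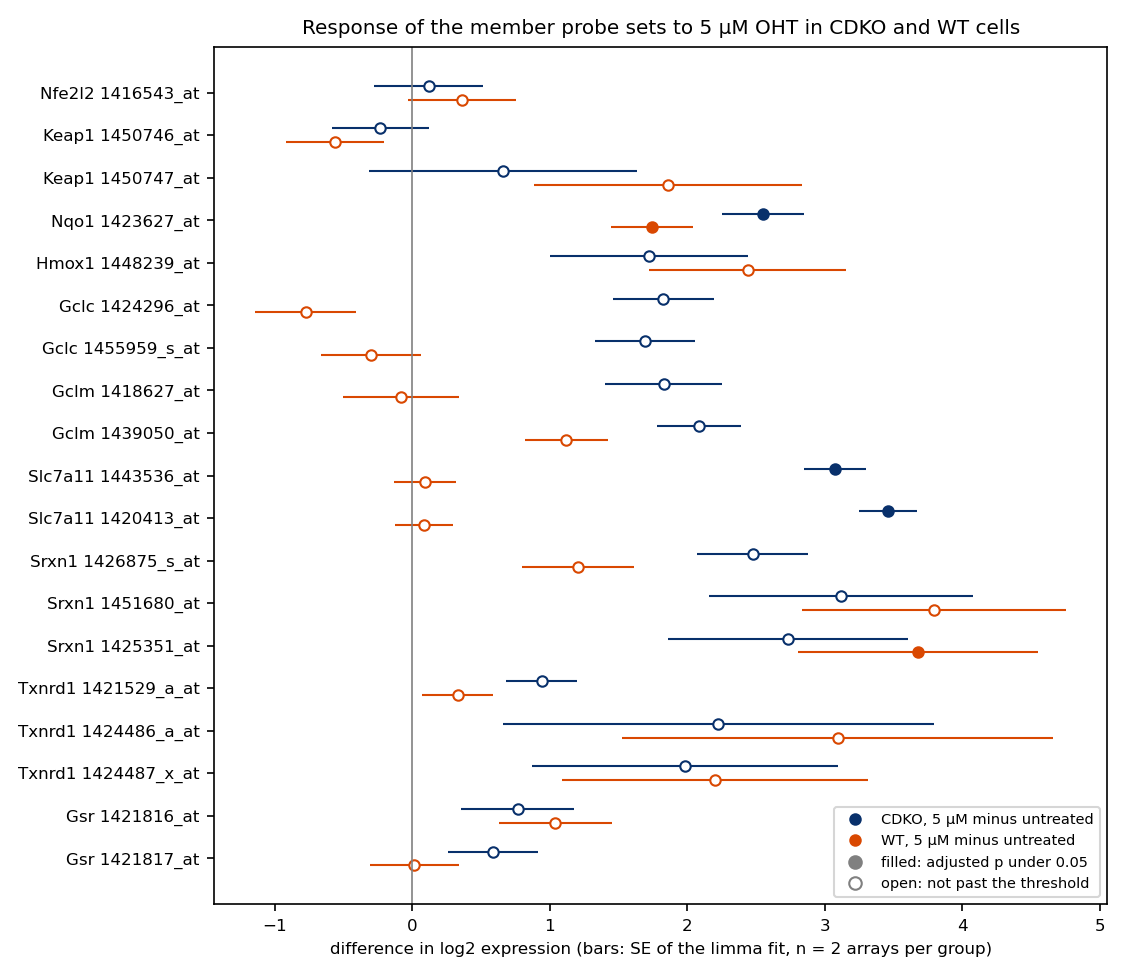
Difference in log2 expression between 5 µM OHT and untreated cells for the 19 tested probe sets, in CDKO (blue) and in WT cells (orange), with SE of the limma fit (n = 2 arrays per group). Filled points passed at an adjusted p under 0.05: Nqo1 and both Slc7a11 sets in CDKO, Nqo1 and Srxn1 1425351_at in WT cells.

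The comparison that the series was designed for sets the 4 treated CDKO arrays against the 6 control arrays. Nqo1, both Slc7a11 sets, and 1 probe set each of Gclm and Srxn1 were higher in treated CDKO cells. A model with CDKO or WT as a term, in which none of them passed, makes a different comparison and is given further down. A total of 5 of 19 probe sets were higher, where 1.19% of all were: Nqo1 by 1.77 ± 0.19, Slc7a11 by 1.61 ± 0.15 and 1.74 ± 0.14, Gclm 1439050_at by 1.35 ± 0.20 and Srxn1 1426875_s_at by 1.41 ± 0.26 (SE, adjusted p = 0.0061, 0.00374, 0.00233, 0.016 and 0.0332 in limma). Gclm 1418627_at differed by 0.65 ± 0.27, and Srxn1 1451680_at and 1425351_at by 2.32 ± 0.62 and 2.18 ± 0.56. None of these passed (adjusted p = 0.254, 0.0925 and 0.0851 in limma). The averages join doses that differ. The 1 µM arrays of Slc7a11 were at background, and those of Nqo1 and Gclm 1439050_at were no higher than untreated CDKO cells. Srxn1 1426875_s_at differed by 0.10 ± 0.41 between 1 µM and untreated CDKO cells. The Slc7a11 sets reached the level for testing only in 5 µM CDKO cells, so their passes add no support beyond the readings. The model with CDKO or WT as a term has no mean for each group. Its difference is treated minus untreated CDKO cells, and the gaps between doses and between the WT groups enter its spread. There the adjusted p was 1 for all 5 and 0 of all 20681 probe sets passed. The differences were 1.05 for Nqo1, 1.61 and 1.72 for Slc7a11, 0.77 for Gclm and 1.29 for Srxn1. That model does not test the difference from the 3 control groups. Without the untreated WT group, Slc7a11 1420413_at passed (adjusted p = 0.0497), and Slc7a11 1443536_at (0.0718), Nqo1 (0.217), Gclm (0.238) and Srxn1 (0.411) did not, with differences of 1.59, 1.16, 0.92 and 1.08. With array weights Nqo1, Gclm and Srxn1 did not pass (0.0529, 0.165 and 0.0831), with the spike-in class as a term Gclm and Srxn1 did not (0.074 and 0.137), and with no filter or the replicate block Srxn1 did not (0.0883 and 0.0599). Gclm did not pass without either 5 µM WT array (0.0652 and 0.0678), and Srxn1 passed without untreated CDKO replicate 2 or 1 µM CDKO replicate 2 and without no other array (0.0559 to 0.117). The count was 9 without 1 µM CDKO replicate 2, where 5.82% of all probe sets passed, and 3 without either 5 µM WT array, where 0.687% and 0.938% did, against 4.08% with all arrays.

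Genes around the pathway were counted by lists, with 1 probe set a gene. Over all 20681 probe sets, 0.145% passed in either direction at 5 µM against untreated CDKO cells, and 49.9% had a positive difference. In WT cells these shares were 9.23% and 46.8%. With so low a share in CDKO cells, a count of 0 there does not set a list apart. Among 9 tested partners and regulators of NRF2 (such as the small MAF proteins and the repressors BACH1 and BACH2), 0 passed in CDKO cells at 5 µM, and their median difference was 0.21. In WT cells Maff, a small MAF protein, was higher by 1.38 ± 0.26, and Bach1 and Bach2 were lower, with differences of -1.42 ± 0.25 and -3.48 ± 0.69 (SE, n = 2 each, adjusted p = 0.023, 0.0185 and 0.0272 in limma). Bach2 read 3.97 and 3.53 in 5 µM WT against 7.003 and 7.448 in untreated WT cells. Maff read 10.04 and 10.36 in 5 µM CDKO against 8.43 and 8.88 in untreated CDKO cells, which did not pass.

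Of the other 12 tested genes of glutathione metabolism, 12 of the thioredoxin, peroxiredoxin and dismutase system and 9 of NADPH supply, 0 passed at 5 µM in CDKO cells. Of all probe sets 0.145% passed, and the medians of these lists were 0.21, 0.08 and 0.18. The members' median by gene was 1.77. In WT cells Sod3, the extracellular superoxide dismutase, was higher by 3.20 ± 0.76 and Sod1, the cytosolic one, differed by -0.86 ± 0.21 (SE, n = 2 each, adjusted p = 0.0433 and 0.0482 in limma). Ggct, which releases 5-oxoproline in glutathione breakdown, was 1.51 ± 0.33 higher in CDKO than in WT cells when both were untreated (adjusted p = 0.0387).

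Of 14 further NRF2 targets, 11 had a positive difference in CDKO cells at 5 µM, where 49.9% of all probe sets had one. Their median was 0.66, and Abcc4, an efflux transporter, passed, where 0.145% of all probe sets did. Abcc4 read 6.77 and 7.48 in untreated, 7.28 and 7.34 in 1 µM and 9.73 and 9.83 in 5 µM CDKO cells, and 6.61 and 6.55 in 5 µM WT against 7.07 and 7.17 in untreated WT cells. It rose by 2.66 ± 0.25 against untreated CDKO cells and was higher by 3.20 ± 0.25 than in 5 µM WT cells (SE, n = 2 each, adjusted p = 0.0312 and 0.00282 in limma), and its response differed between CDKO and WT cells by 3.19 ± 0.36 (0.0192). Lrp8 and Blvrb, a lipoprotein receptor and a biliverdin reductase, had differences of 2.56 ± 0.50 and 1.22 ± 0.22 and did not pass (0.14 and 0.119). In the same comparison of WT cells 0 of 14 passed, where 9.23% of all probe sets did, with a median of 0.38. Aox1, an aldehyde oxidase, was 1.43 ± 0.27 higher in CDKO than in WT cells when both were untreated (0.0268).

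Slc7a11 is also a known target of ATF4, the factor of the amino acid response, so genes of ATF4 and transsulfuration were counted. At 5 µM in CDKO cells 0 of 13 passed, where 0.145% of all probe sets passed in either direction. Of the 13, 4 had a positive difference, where 49.9% of all probe sets had one, and the median was -0.25. Atf3, 1 of these 4, read 8.17 and 7.70 in 5 µM against 6.43 and 6.56 in untreated CDKO cells. The part of ATF4 was not tested. In WT cells, where 9.23% of all probe sets passed in either direction, Cth, which makes cysteine from cystathionine, was higher by 1.64 ± 0.36 (SE, n = 2 each, adjusted p = 0.0358 in limma). The amino acid transporter Slc7a5 differed by -2.20 ± 0.55 (adjusted p = 0.0495). Cth read 9.02 and 8.60 in 5 µM CDKO and 8.54 and 9.58 in untreated CDKO cells. Without treatment it was 1.85 ± 0.36 higher in CDKO cells (0.0292).

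**Figure D5:**
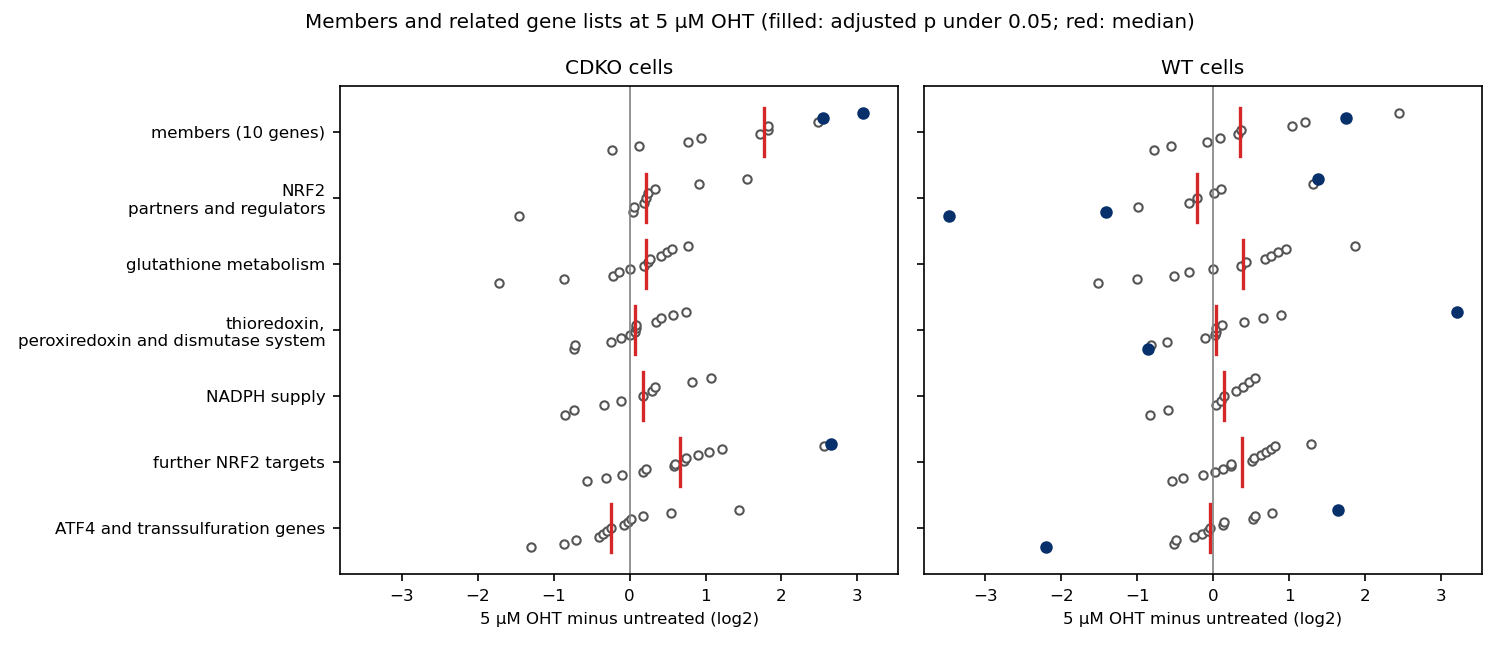
Difference in log2 expression between 5 µM OHT and untreated cells for the 10 genes and 6 related lists, in CDKO cells (left) and WT cells (right). Points are genes (1 probe set each), filled where the adjusted p is under 0.05, and red bars are medians: in CDKO cells 1.77 for the 10 genes and -0.25 to 0.66 for the lists.

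Genes with a pattern like 3 members were found by Pearson's correlation over the 10 arrays, as a description, since the arrays share treatment and array state. Nqo1 was closest to Manea (0.98), Mrps2 (0.974), Rbpj (0.968), Tmem202 (0.962) and Taldo1 (0.954). Slc7a11 1443536_at was closest to Wdr59 (0.99), Znrf3 (0.969), Cert1 (0.961), Abcc4 (0.96) and Serpinb1b (0.958), of which Serpinb1b spanned 2.39 to 7.43 and Wdr59 only 3.88 to 4.20. Hmox1 was closest to Ctsl (0.993), Zfand2a (0.991), Ank (0.986), Thbd (0.982) and Timp2 (0.981), and its arrays with a raised 18S control were its lowest.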

How the data were processed

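Expression was measured on 10 Affymetrix arrays in 5 groups of 2. The values are those the authors deposited, log2 expression per probe set. Per the submitters' processing notes GCRMA made them (no version given). That the scale is log2 was read from the values (1.09 to 16). The titles, which name 4 samples wild type, were followed over a description that calls all of them knockout. Gene names come from GEO's platform annotation: 34945 probe sets had 1 symbol, 932 several and 9160 none. After 64 controls and probe sets with a highest group mean under 4 were left out, 20681 were tested with limma 3.58.1 under R 4.3.3, using lmFit with a mean for each of the 5 groups (residual degrees of freedom 5) and eBayes, two-sided, with Benjamini-Hochberg adjustment over all of them and adjusted p under 0.05 as the threshold, in 8 comparisons. The fit was tested on simulated data. A gene is represented by its probe set with the highest mean. All members are named, with up to 4 genes of a list that passed with the largest change, the 5 genes most like Nqo1, Slc7a11 and Hmox1, and Dicer1. Lrp8, Blvrb, Atf3 and the single cell type markers were named after their values were seen. The members and lists were chosen with earlier results of these data known. Replicate numbers did not pair the arrays: the correlation of replicate differences was -0.453 between untreated and 1 µM CDKO cells, 0.431 between untreated and 5 µM CDKO cells and -0.0194 between the WT groups. Alternatives were no filter or one at 6, a trended robust prior, quantile normalization, centring, array weights, the compared groups alone and the replicate block. Others were the spike-in class as a term, 1 probe set per gene and each array left out. Beside the comparison with 3 control groups stood a fit without untreated WT cells and the model with CDKO or WT as a term. Leaving out the arrays with a raised 18S control was chosen after seeing the data. No reference genome was used.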

Additional observations from a re-analysis of the deposited data

Results flagged for a closer look

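Slc7a11 read above background only in 5 µM CDKO cells. The difference in its response to 5 µM OHT between CDKO and WT cells passed for both probe sets (limma interaction contrast, 2 arrays per group). The difference was 2.98 on the log2 scale for probe set 1443536_at and 3.37 for probe set 1420413_at, with both 5 µM CDKO arrays above and all other arrays at background. The probe sets reached the level for testing only in 5 µM CDKO cells, so the test adds no support beyond these readings. With no filter on level the adjusted p was 0.0123 and 0.00509 in limma, but that fit rests on the same background arrays. With each array left out in turn the differences ran from 2.934 to 3.026 and from 3.135 to 3.613, and not all of these fits kept the call. As the other arrays are at background, the size of the difference is no ratio of transcripts. The untreated WT arrays that enter it have the raised 18S control and express muscle and epithelial markers, and the part of both in the result was not tested. The 5 µM WT arrays, without a raised 18S control, were at background as well (2.56 to 2.80 over both probe sets).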

How the results depend on the processing

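Counts are of the 19 tested member probe sets past the threshold. Settings that moved them by over 1.5 times were these. For 5 µM against untreated CDKO cells (3), the compared groups alone gave 0 and so did leaving out the 3 arrays with a raised 18S control, a setting chosen after seeing the data. For 5 µM against 1 µM CDKO cells (4), those settings gave 0 and 0, array weights 1, the replicate block 1 and 1 probe set per gene 2. For 5 µM against untreated WT cells (2), no filter gave 1, quantile normalization 4, array weights 14 (60.2% of all probe sets passed), the compared groups alone 14 (54.7% of all), the replicate block 1 and 1 probe set per gene 1. For the difference in response (2), a filter at 6 gave 1 and 1 probe set per gene 1. For untreated CDKO against WT cells (2), no filter, the compared groups alone, the replicate block, the spike-in class as a term and 1 probe set per gene each gave 1. For CDKO against WT cells at 5 µM (5), the compared groups alone gave 0, 1 probe set per gene 2 and leaving out the raised 18S arrays 3. For treated CDKO cells against the 3 control groups (5), array weights gave 2, the spike-in class 3, 1 probe set per gene 3, no untreated WT group 1 and CDKO or WT as a term 0. That last setting compares treated with untreated CDKO cells and has no mean for each group. In the comparison with the 3 control groups the compared groups alone are the whole data. The replicate block left 2, 0, 2, 4 and 4 where it is not named, in the order 5 µM and 1 µM against untreated CDKO cells, difference in response, CDKO against WT cells at 5 µM, and treated CDKO cells against controls. Without each array in turn the counts ran from 0 to 3, 0 to 0, 1 to 14, 0 to 7, 0 to 2, 0 to 5, 2 to 6 and 3 to 9, in the order 5 µM against untreated, 1 µM against untreated, 5 µM against 1 µM in CDKO cells, WT cells, difference in response, untreated CDKO against WT cells, the same at 5 µM, and treated CDKO cells against controls. Of 23 member values past the threshold 0 changed sign under any of these settings, 6 passed without each array in turn and 4 under every other setting. The 6 were Nqo1 in treated CDKO cells against controls and otherwise Slc7a11 sets. The 4 were Nqo1 in 5 µM against untreated WT cells and in untreated CDKO against WT cells, and both Slc7a11 sets in the difference in response. The Slc7a11 sets reached the level for testing only in 5 µM CDKO cells, so these tallies do not show stability of the 10 genes as a set. The calls over all probe sets ranged as widely, from 0 to 121 for 5 µM against untreated CDKO cells (30 in the reported fit) and from 64 to 12458 for the WT cells (1909). With 2 arrays a group and values near background below about 4, the precision is limited by the number of arrays.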
